A study of Mus musculus with 26 samples.

Results

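The AP-2 transcription factors are a small family of DNA-binding proteins, encoded in the mouse by Tfap2a, Tfap2b, Tfap2c, Tfap2d and Tfap2e. These 5 genes were followed through 26 single retinal amacrine cells, each profiled on its own Affymetrix Mouse 430 2.0 array. They were chosen by name among the 18193 genes that the arrays measure, and 10 of the 45101 probe sets belong to them: 3 to Tfap2a, 2 to Tfap2b, 3 to Tfap2c and 1 each to Tfap2d and Tfap2e. Of a gene's probe sets, the brightest on average over the cells is described. Detection in a cell means a signal of 1000 or more, which is 2 times the trimmed mean of every array.

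The cells came from dissociated mouse retinas that carried a GFP reporter, pNdrg4::GFP or pSynapsin::GFP, introduced by electroporation in vivo or ex vivo. Per the labels, both reporters mark sets of amacrine cells that differ in shape and with age. The single embryonic day 19 cell (E19 B1, pSynapsin) and 2 postnatal day 4 cells (P4 A3 and B4, pNdrg4) came from retinas kept 4 days in vitro. At postnatal day 5 the labels give 10 pNdrg4 cells without a stated culture (P5 A1, A2, A5 to A8 and B1 to B4), 5 pNdrg4 cells cultured for 5 days (P5 C1, C6, D3, D5 and D6) and 4 pSynapsin cells cultured for 5 days (P5 E1 to E4). At postnatal day 8 there were 2 pNdrg4 cells (P8 A1 and A2) and 2 pSynapsin cells (P8 B3 and B4), all cultured for 8 days. The design text places electroporation at the day of birth, so the stage at which the E19 retina received its reporter is not settled by the labels. Strain, sex and genotype are not given in the labels, and neither is the animal, retina or culture of any cell. Each group of cells was therefore counted as 1 sample: SDs describe the spread over cells, no p-values were computed, and exact 95% Clopper-Pearson intervals cover counting error only.

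AP-2 proteins bind DNA as dimers, most strongly to the palindrome GCCNNNGGC, and act with coactivators of the CITED and CBP/p300 type. In the developing retina, Tfap2a and Tfap2b are known from newly postmitotic amacrine and horizontal cells, where they act downstream of the fate factor Ptf1a. Tfap2c and Tfap2e have been described in smaller sets of amacrine cells, and Tfap2d in retinal ganglion cells.

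Between 1909 and 4180 genes were detected per cell (median 3253.5), fewer in the P5 group with no culture stated (1909 to 3513) than in the cultured P5 pNdrg4 group (3049 to 3925), with overlapping ranges. Pax6, an amacrine transcription factor, was detected in 26 of 26 cells, and Slc32a1, whose product loads GABA and glycine into vesicles, in 22. Because Tfap2a and Tfap2b also mark horizontal cells, that list was read in the same arrays: of its 11 measured genes, Onecut1, Lhx1, Calb1 and Gjb2 were detected in 0 of 26 cells each, which allows a share of up to 13.2%. The other 7 were detected in some cells, Tpm3 in 18, Ret and Septin4 in 8 each, Nefl in 5, Onecut2 and Nefm in 4 each and Prox1 in 2, with 0 to 6 of the 11 per cell. Their summed level above the floor was highest in the P8 pNdrg4 cells (15.6 and 24.3 log2 units), and their part in the AP-2 values was not tested. In 5 cells, 7 or more of 14 measured rod photoreceptor genes were detected (P5 B4 with 7, P8 A1 with 8, P5 E2 with 9, P8 A2 and P8 B4 with 10), and their values are named where they enter a result.

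By the described probe sets, most cells expressed Tfap2b and fewer expressed Tfap2a. The other family members were detected in 5 cells, all from the E19 group, the P4 group and the P5 group with no culture stated. Tfap2b was detected in 20 of 26 cells (76.9%, interval 56.4 to 91.0) and Tfap2a in 16 (61.5%, 40.6 to 79.8). By the second probe sets, 1423340_at and 1426048_s_at, Tfap2b was detected in 11 cells and Tfap2a in 8. Tfap2c was detected in 3 cells (11.5%, interval 2.45 to 30.2), Tfap2e in 2 (7.69%, 0.946 to 25.1) and Tfap2d in 1 (3.85%, 0.0973 to 19.6). By cell, 14 cells had 2 AP-2 genes, 4 had 1, 2 had 3, and P4 A3 had 4. The other 5 cells (P5 D6, P5 E1, P5 E3, P5 E4 and P8 B3) had none of the family (19.2%, 6.55 to 39.4).

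**Figure D1:**
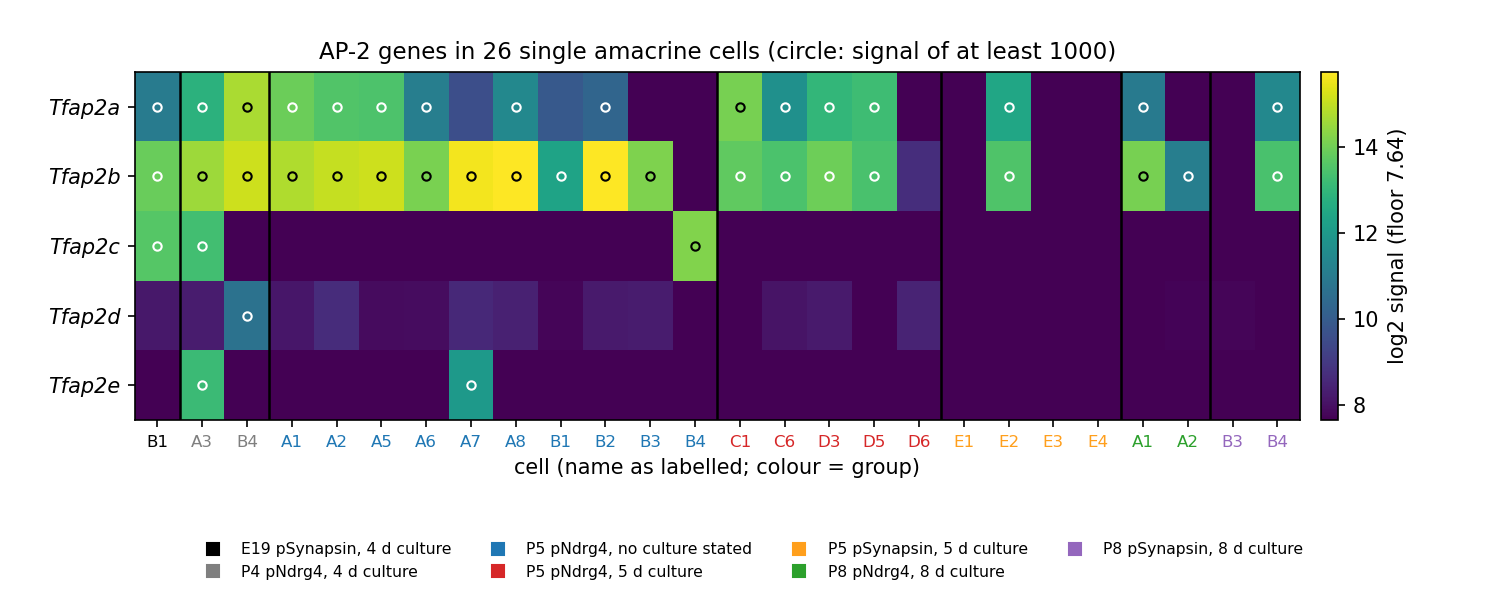
Signal of each AP-2 gene (rows) in each of the 26 cells (columns, grouped and coloured by age, reporter and culture), as log2 signal with values under 200 raised to that floor; a circle marks a signal of at least 1000. Colours compare cells within a row. Circles mark Tfap2b in 20 and Tfap2a in 16 of the 26 columns, and in 1 of the 4 P5 pSynapsin columns each, while Tfap2c, Tfap2d and Tfap2e appear in 5 cells in all.

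Tfap2b was either high or close to the array background, with little in between. Among the 20 cells with Tfap2b the signal ran from 2231 (P8 A2) through a median of 17608 to 54926 (P5 B2). The 6 cells without it had signals of 413 (P5 D6) and below. The distance between the highest cell without and the lowest cell with Tfap2b was wide next to the detection level, so moving that level to 500 or 2000 left the count at 20. In the cells with Tfap2b, the SD of the log2 signal was 1.14. The other probe set, 1423340_at, was detected in 11 cells and had signals in between, such as 680 in E19 B1 and 707 in P5 A1.

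Tfap2a was more graded. Its signal ran from 1260 (P5 B2) through a median of 6425 to 27151.5 (P4 B4) in the 16 cells with detection, with an SD of 1.34 on the log2 scale. The cells nearest below the detection level were P5 B1 at 962 and P5 A7 at 764, both with Tfap2b detected. The next lower cell was P5 D6 at 86.6. For these 2 cells the call therefore rests on the level chosen, whereas the other 8 cells without Tfap2a were far below it. At a level of 500 Tfap2a was detected in 18 cells and at 2000 in 15.

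By the described probe sets, all 16 cells with Tfap2a also had Tfap2b, and 0 of 16 had Tfap2a alone, which allows a share of up to 20.6%. This holds for Tfap2b probe set 1435670_at only: by the other, 1423340_at, 10 of the 16 cells had both genes, and E19 B1, P5 A1, P5 A2, P5 A8, P5 D3 and P5 E2 had Tfap2a alone. The remaining 4 cells with Tfap2b (P5 A7, P5 B1, P5 B3 and P8 A2) lacked Tfap2a at this level. Such nesting was not seen in other genes detected equally often: of 197 genes detected in exactly 16 cells, 0 (0%) lay wholly within the cells that had Tfap2b. Likewise, of 129 genes detected in exactly 20 cells, 0 (0%) covered every cell with Tfap2a. Genes detected in other numbers of cells did show nesting, so it is not particular to the pair. Map2, detected in 19 cells, covered all 16 with Tfap2a. Stk38 (14 cells) and Slc37a4 (12 cells) lay wholly within the cells with Tfap2b. The phi coefficient of joint detection, which is 1 for identical and 0 for unrelated patterns, was 0.69 over 26 cells. Among 6267 genes detected in 4 to 22 cells, Tfap2a had the highest phi with Tfap2b, and Tfap2b the second highest with Tfap2a.

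Within the cells that had both genes, the signals showed little relation. Over these 16 cells Pearson's r between the log2 signals was 0.042 and Spearman's rho 0.021, and r was 0.18 without P5 B2 and P4 B4, the 2 cells farthest from the median. Over all 26 cells r was 0.75 and rho 0.57, which mainly separates cells with both genes from cells with neither. Both signals of a cell come from 1 array and share its scaling. The highest Tfap2b signals lay in P5 B2 (54926), P5 A8 (53872) and P5 A7 (49664), where Tfap2a was at 1260, 2739 and 764. The highest Tfap2a signal, in P4 B4, came with a Tfap2b signal of 35604.5, and the next, 17508.5 in P5 C1, with one of 14078. A low Tfap2a signal therefore occurred at the top of the Tfap2b range as well as near its middle.

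**Figure D2:**
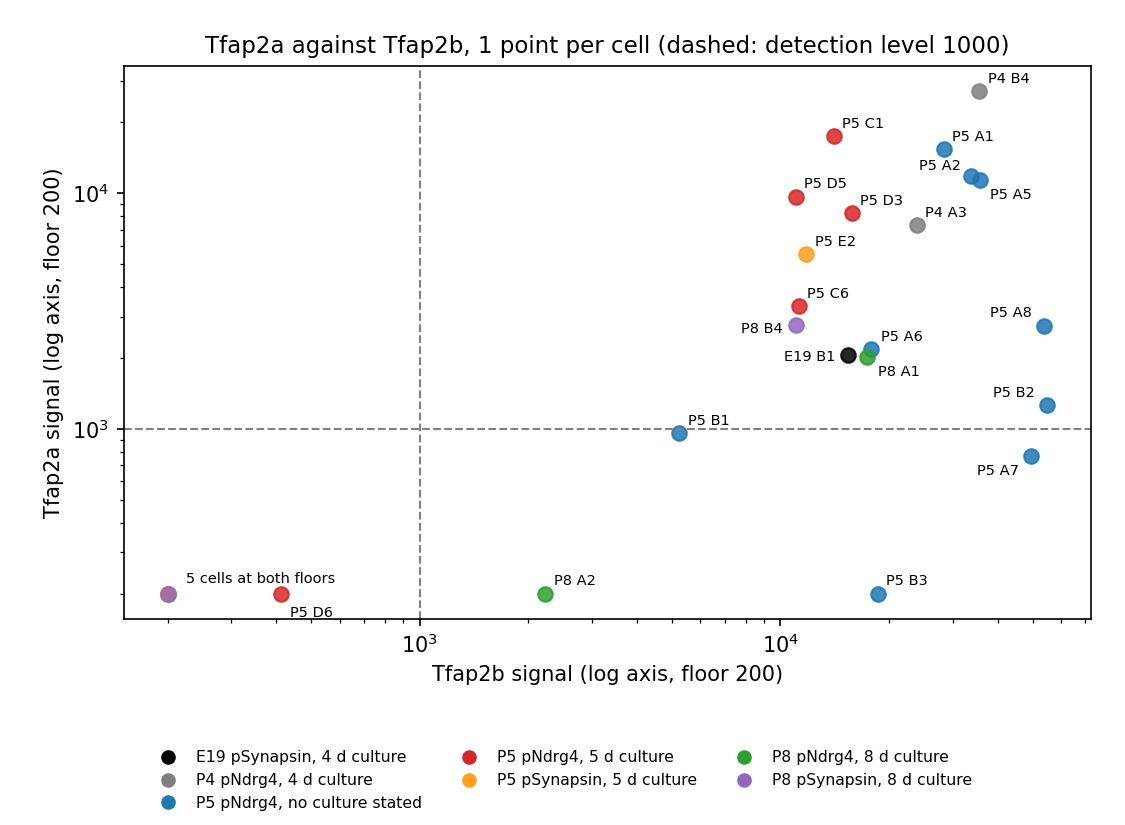
Tfap2a signal (vertical, log axis) against Tfap2b signal (horizontal, log axis), 1 point per cell, coloured by group, with values under 200 drawn at 200 and dashed lines at the detection level of 1000. No point lies in the upper left field, where Tfap2a would be detected without Tfap2b, and the 16 points in the upper right field form no line (r = 0.042).

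Tfap2a and Tfap2b lie on different chromosomes (GRCm38.p6, chr13:40713802-40738238 on the minus strand and chr1:19208908-19238845 on the plus strand). The promoter windows of this pair are shown because the pair was detected together, with the 250 bases before a RefSeq transcript start given 5′ to 3′ in the direction of the gene. Both windows lie inside the annotated span of their gene, before an internal transcript start. Capitals mark matches to 3 motifs searched on both strands: the AP-2 palindrome GCCNNNGGC, the E-box CANNTG read by basic helix-loop-helix factors such as Ptf1a and Neurod1, and the homeodomain core TAATTA.
Tfap2a (chr13:40734921-40735170, minus strand): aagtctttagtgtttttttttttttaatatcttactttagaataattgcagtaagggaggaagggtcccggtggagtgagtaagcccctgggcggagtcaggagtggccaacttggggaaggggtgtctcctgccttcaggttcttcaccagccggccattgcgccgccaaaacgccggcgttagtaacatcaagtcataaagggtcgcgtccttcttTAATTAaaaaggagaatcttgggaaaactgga
Tfap2b (chr1:19211804-19212053, plus strand): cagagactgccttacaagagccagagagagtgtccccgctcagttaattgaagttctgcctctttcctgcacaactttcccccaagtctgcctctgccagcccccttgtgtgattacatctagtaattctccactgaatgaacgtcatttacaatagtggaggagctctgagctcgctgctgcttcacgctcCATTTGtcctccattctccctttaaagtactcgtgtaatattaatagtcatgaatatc
The Tfap2a window holds 1 match to TAATTA, 32 bases before the start, a motif found in 4.84% of 32851 such windows. The Tfap2b window holds 1 E-box, CATTTG, 58 bases before the start, and 66.2% of all windows hold an E-box. The palindrome GCCNNNGGC is in neither window, and 13.7% of all windows hold it. The GC content was 47.6% for Tfap2a and 46.4% for Tfap2b, against a median of 52.4%. A second Tfap2a window in the table (chr13:40733796-40734045) has a GC content of 60.4% and none of the 3 motifs. A match is only a stretch of letters, and these arrays measure no binding.

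Tfap2d lies next to Tfap2b on chromosome 1 (chr1:19103022-19173948), 34959 bases upstream with 0 annotated genes between them. Of the 20 cells with Tfap2b, 1 had Tfap2d: P4 B4, at 1671. The other 25 cells had Tfap2d signals of 410 or less, many of them above the floor of 200 used for differences, so P4 B4 stood less far above the rest than the cells with Tfap2c or Tfap2e did. At a detection level of 2000 Tfap2d was detected in 0 cells, and after quantile normalization in 3.

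Tfap2c (chr2:172545678-172558622) was high in 3 cells and near 0 in all others. Its signal was 12496 in E19 B1, 10071.5 in P4 A3 and 18992.5 in P5 B4, against at most 122 in the other 23 cells. E19 B1 and P4 A3 had Tfap2a and Tfap2b as well. P5 B4 was the only cell with Tfap2c as its sole AP-2 gene: its Tfap2a signal was 9.08 and its Tfap2b signal 14.8, both the lowest of the 10 cells in its group. That cell also had 7 of 14 rod genes detected, 6 of 9 measured progenitor and cell cycle genes and 6 of 10 Muller glia genes. In E19 B1 and P4 A3, 3 and 2 of the 9 progenitor and cell cycle genes were detected. The part of these genes in the AP-2 patterns was not tested.

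Tfap2e (chr4:126716003-126736269, minus strand) was detected at 9269 in P4 A3 and at 4214 in P5 A7, with 181 or less elsewhere. P4 A3 is thus the cell with the widest AP-2 set, Tfap2a, Tfap2b, Tfap2c and Tfap2e together, and P5 A7 had Tfap2e with Tfap2b. Both cells had the GABA-synthesising enzyme Gad1 (6304 and 8089), and in both the glycine transporter Slc6a9 was at 242 or less. With 2 cells this is a description only.

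The other probe sets detected each gene in fewer cells or in the same cells, and for Tfap2b the calls differed in 9 of 26 cells. For Tfap2a, probe set 1426048_s_at was detected in 8 cells, all among the 16, and its rank correlation with the described probe set 1421996_at was 0.95 over 26 cells. The third, 1421995_at, reached no more than 614 in any cell. For Tfap2b, 1423340_at was detected in 11 cells, all among the 20, with a rank correlation of 0.65. In P5 A2 and P5 A8 that probe set read 39.6 and 114 while 1435670_at read 33717 and 53872, so both the level and the detection of Tfap2b in a cell depended on the probe set. With the second probe set of both genes, Tfap2a was detected in 8 cells, and in 3 of them (P5 A1, P5 A2 and P5 D3) Tfap2b was not. All 3 cells with Tfap2c were also found by 1418147_at, and 2 of them by 1448977_at, which read 701 in P4 A3.

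**Figure D3:**
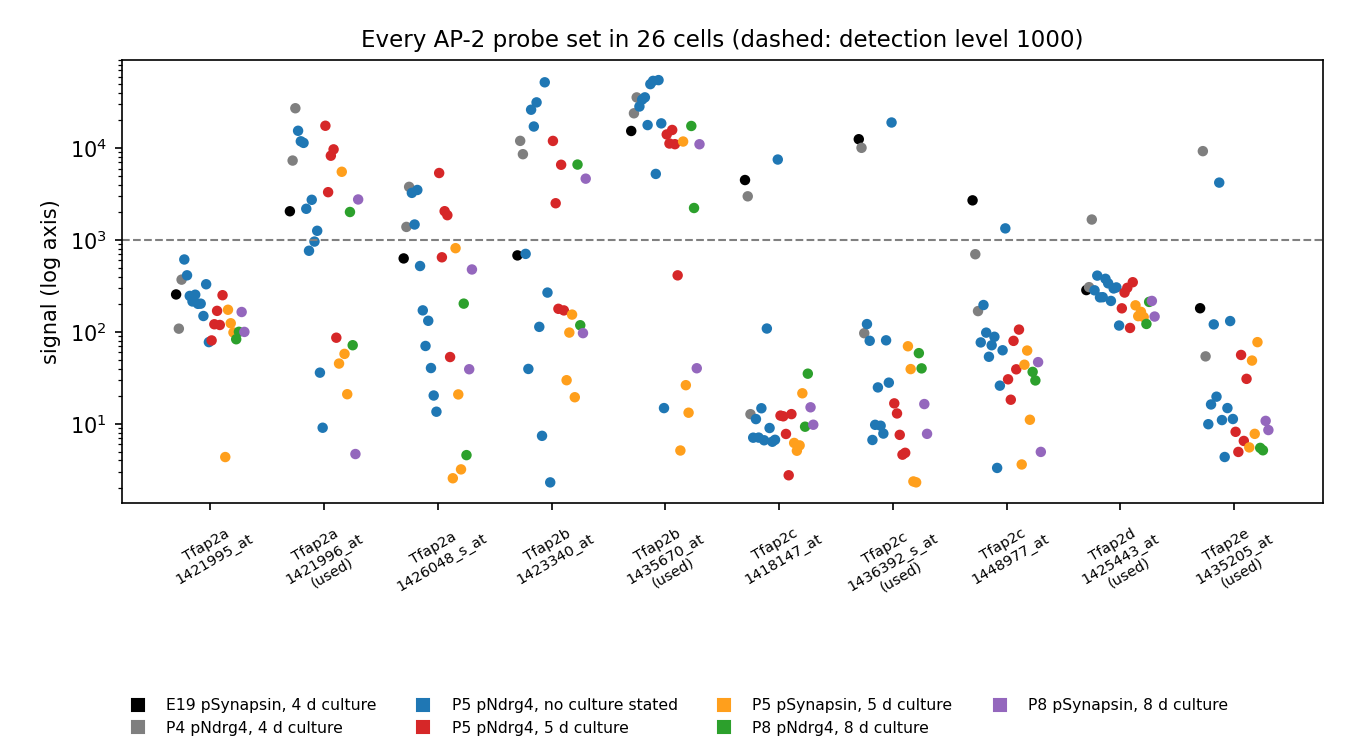
Signals of all 10 AP-2 probe sets (horizontal) in the 26 cells (vertical, log axis), 1 point per cell in the same left-to-right order of cells, coloured by group; the dashed line is the detection level of 1000, and "used" marks the probe set described. Probe sets of different genes are not comparable in height. The spread within each column splits into an upper and a lower cloud for Tfap2b and Tfap2c, while 1421995_at stays below the line in every cell.

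Across the groups, Tfap2a and Tfap2b were high at P4 and lowest in the P5 pSynapsin group. On the log2 scale, where the floor is 7.64, the mean of Tfap2a was 13.78 ± 1.34 at P4 (SD, n = 2 cells), 11.94 ± 2.55 in cultured P5 pNdrg4 cells (n = 5), 11.01 in the E19 cell, 10.85 ± 2.29 at P5 with no culture stated (n = 10), 9.54 ± 2.68 in P8 pSynapsin cells (n = 2), 9.31 ± 2.36 in P8 pNdrg4 cells (n = 2) and 8.84 ± 2.39 in P5 pSynapsin cells (n = 4). For Tfap2b the order was 14.83 ± 0.41 at P4, 14.03 ± 2.46 at P5 with no culture stated, 13.91 in the E19 cell, 12.66 ± 2.23 in cultured P5 pNdrg4 cells, 12.61 ± 2.10 in P8 pNdrg4 cells, 10.54 ± 4.09 in P8 pSynapsin cells and 9.11 ± 2.94 in P5 pSynapsin cells. No gap between neighbours in either order exceeded the larger of their SDs. The largest SDs are those of groups that mix cells with and without the gene.

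The reporters were compared at P5 in cultured cells, to ask whether the AP-2 genes differ between the cells they mark. Tfap2a signals were 17508.5, 3316, 8263, 9689 and 86.6 in the pNdrg4 cells C1, C6, D3, D5 and D6, and 45.3, 5528, 57.7 and 21.0 in the pSynapsin cells E1 to E4. Tfap2b signals were 14078, 11223, 15758, 11034 and 413 in the same pNdrg4 cells, and 5.13, 11792, 26.4 and 13.2 in the pSynapsin cells. In both genes 4 of 5 pNdrg4 cells were high and 3 of 4 pSynapsin cells were at the floor, but D6 was low and E2 high, so the groups overlapped. The mean difference, pSynapsin minus pNdrg4, was -3.10 for Tfap2a and -3.55 for Tfap2b on the log2 scale. Of 8570 genes detected in at least 2 cells, 4.25% had a difference of -2 or less. Without E2 the differences were -4.29 and -5.02. E2 stood apart from the other pSynapsin cells in rod genes too, with 9 detected against 2 to 6. The summed rod signal ran from 11.6 to 50.5 log2 units above the floor in the pSynapsin cells and from 9.23 to 12.3 in the pNdrg4 cells, with Pde6a, Gngt1 and Prph2 detected in neither. Xist, which female cells transcribe, was detected in 1 of 4 pSynapsin cells (E2, at 5058) and in 5 of 5 pNdrg4 cells, D6 included. Its part in the difference was not tested.

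At P8 the reporter groups held 2 cells each. Tfap2a was at 2018 in P8 A1 and 71.7 in P8 A2 (pNdrg4), and at 4.70 in P8 B3 and 2763 in P8 B4 (pSynapsin), so each group had 1 cell with and 1 without it. Tfap2b was at 17409 and 2231 in the pNdrg4 cells and at 40.3 and 11017 in the pSynapsin cells. The differences were 0.23 for Tfap2a and -2.07 for Tfap2b, where 9.98% of the 8570 genes had a difference of -2 or less. For Tfap2b the difference was 0.82 without P8 B3 and -4.96 without P8 B4, so its sign rests on 1 cell, and with the second probe set it was -0.25. Rod genes were detected in every P8 cell (8 and 10 of 14 in the pNdrg4 cells, 4 and 10 in the pSynapsin cells). Xist was detected in 2 of 2 P8 pNdrg4 cells and 0 of 2 P8 pSynapsin cells, and its part was not tested.

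Culture was compared within P5 pNdrg4 cells. With no culture stated, Tfap2a ran from 9.08 through a median of 1724 to 15436, and Tfap2b from 14.8 through a median of 31029.5 to 54926. In the cultured cells, whose values are given above, Tfap2b was at most 15758, below 8 of the 10 cells with no culture stated, while Tfap2a covered nearly the same range in both groups. The difference, cultured minus no culture stated, was 1.09 for Tfap2a and -1.37 for Tfap2b, next to a median of 0.31 over 8570 genes, and 0 of the 4 AP-2 genes among these 8570 reached 2 in either direction. In all, 7.36% of genes had a difference of at least 2 and 1.48% one of -2 or less. Cell D6 moved both values: without it they were 2.16 and -0.38. With the second probe set of Tfap2b its difference was -0.18. Without P5 B4 that of Tfap2b was -2.08, without C1 that of Tfap2a was 0.55, and after quantile normalization that of Tfap2b was -0.71. Culture cannot be told apart from other properties of these groups: a median of 2361.5 genes was detected where no culture is stated, and Xist was detected in 0 of 10 of them against 5 of 5 cultured cells. Over the 20 cells with Tfap2b, its log2 signal was lower where more genes were detected (Pearson's r -0.62, rho -0.60, r -0.44 without the 2 farthest cells), whereas for Tfap2a in 16 cells r was 0.19. For Pax6 over 26 cells rho was -0.55 and r -0.30 (-0.19 without the 2 farthest cells), so a lower signal at more detected genes was not particular to Tfap2b. Tfap2c and Tfap2e, at the floor in all 5 cultured cells, differed by -0.66 and -0.44 through P5 B4 and P5 A7 alone.

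In those cells that had both genes, the log2 ratio of the Tfap2a to the Tfap2b signal varied widely, a measure added after the values were seen. Ratios of different probe sets carry meaning only as differences between cells. The ratio ran from -5.45 in P5 B2 to 0.31 in P5 C1, with a median of -1.68 over 16 cells. In the 6 P5 cells with no culture stated it was -2.80 ± 1.79 and in the 4 cultured P5 pNdrg4 cells -0.64 ± 0.90, with ranges of -5.45 to -0.88 and -1.76 to 0.31 that overlapped.

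Age was compared within each reporter, in cultured cells that are shared with the reporter comparisons. The P5 cells were cultured for 5 days and the P8 cells for 8 days, so age and culture time cannot be told apart. For pNdrg4 the difference P8 minus P5 was -2.63 for Tfap2a and -0.05 for Tfap2b, with overlapping groups, and 5.82% of genes had a difference of -2 or less, 10.2% one of at least 2. The Tfap2a value was -4.29 without P8 A1 and -0.96 without P8 A2. Both P8 pNdrg4 cells had Tfap2b by the described probe set, and 1 of 2 had Tfap2a. In P8 A2 the other Tfap2b probe set, 1423340_at, read 118. For pSynapsin the differences were 0.70 for Tfap2a and 1.42 for Tfap2b, and leaving out 1 cell moved them from -1.20 to 2.59 and from -1.47 to 4.31. The second probe sets gave 0.12 and 2.27. In that comparison 9.44% of genes had a difference of at least 2 and 6.57% one of -2 or less. Of the 4 P8 cells, 3 (A1, A2 and B4) were rich in rod genes, and the part of these in the age differences was not tested.

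The AP-2 pair was set against the transmitter class of the cells. By the described probe sets, all 11 cells with Gad1 had Tfap2b, leaving 0 of 11 without it (up to 28.5%), and 9 had Tfap2a. The other Tfap2b probe set read only 680, 707, 114 and 268 in the Gad1 cells E19 B1, P5 A1, P5 A8 and P5 B3. How many other genes detected in 11 cells lie within the Tfap2b cells was not counted. No Gad1 cell came from the P5 pSynapsin or P8 groups, and the part of reporter, age and culture in this pattern was not tested. Of the 14 cells with Slc6a9, the glycine transporter of glycinergic amacrine cells, 9 had Tfap2b and 7 had Tfap2a. Phi with Tfap2b was 0.47 for Gad1 and -0.32 for Slc6a9. The other measured gene on the glycinergic list, Slc6a5, was detected in 5 cells, 4 of them with Tfap2b (phi 0.04), so it did not share the negative value. The second GABA-synthesising enzyme gene, Gad2, was detected in 14 cells, 11 of them with Tfap2b (phi 0.04), so the 2 enzyme genes did not share this pattern. None of the 5 cells without an AP-2 gene had Gad1, whose signals there were at most 58.5. Of these 5 cells, 4 had Slc6a9 (2022 in E1, 18517 in E3, 15823 in E4, 10854 in P8 B3) and D6 was just under the detection level at 990. All 5 had Pax6 (11931 to 20384) and Slc32a1 (2997 to 11113), and 3049 to 3998 genes were detected in them, within the range of the other cells.

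The genes most like the pair in their detection pattern were ranked by phi. For Tfap2a the first was Map2, which encodes a microtubule-associated protein of dendrites (phi 0.77): it was detected in 19 cells, among them all 16 with Tfap2a. After Tfap2b came Aktip, detected in 10 cells, all with Tfap2a (phi 0.62), then the RNA exosome gene Exosc8 and the nuclear receptor gene Nr2c2 (both 0.59). For Tfap2b, after Tfap2a, these were the histone methyltransferase gene Kmt2c (17 of its 18 cells with Tfap2b, phi 0.62), the kinase gene Stk38 (14 of 14, 0.59), the actin-binding protein gene Afap1 (16 of 17, 0.56) and the glucose-6-phosphate transporter gene Slc37a4 (12 of 12, 0.51). Over the 6267 genes phi with Tfap2a had a median of -0.04 and a 5th to 95th percentile range of -0.41 to 0.32, and phi with Tfap2b a median of -0.08 and a range of -0.43 to 0.27. Only 3 genes reached 0.6 with Tfap2a and 2 with Tfap2b.

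The opposite pattern was found for genes detected mainly where the pair was missing. Least like Tfap2a were Cdkn1a, which encodes the cell cycle inhibitor p21, and Top1mt, a mitochondrial topoisomerase gene, each detected in 7 cells of which 0 had Tfap2a (phi -0.77), and the forkhead gene Foxp4, detected in 6 cells with 0 (phi -0.69). Cdkn1a read 1367 in P5 A7, 3565 in P5 B4, 2079, 1689 and 5089 in P5 E1, E3 and E4, 4970 in P8 A2 and 1773 in P8 B3, and 248 or less in the 19 other cells. Least like Tfap2b were Prox1os and Mgll, the gene of an endocannabinoid-degrading lipase, each in 8 cells that included all 6 without Tfap2b (phi -0.82), and the fatty acid elongase gene Elovl5 in 6 cells, 5 of them without Tfap2b (phi -0.78). Prox1os is antisense to Prox1, and double-stranded amplified cDNA does not keep the strand. Prox1 itself was detected in 2 cells, and the part of Prox1 transcripts in the Prox1os signal was not tested. Over the 6267 genes, 8 had a phi of -0.65 or less with Tfap2a and 34 with Tfap2b. Of the 6 cells without Tfap2b, 5 came from cultured retinas and 4 carried pSynapsin.

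**Figure D4:**
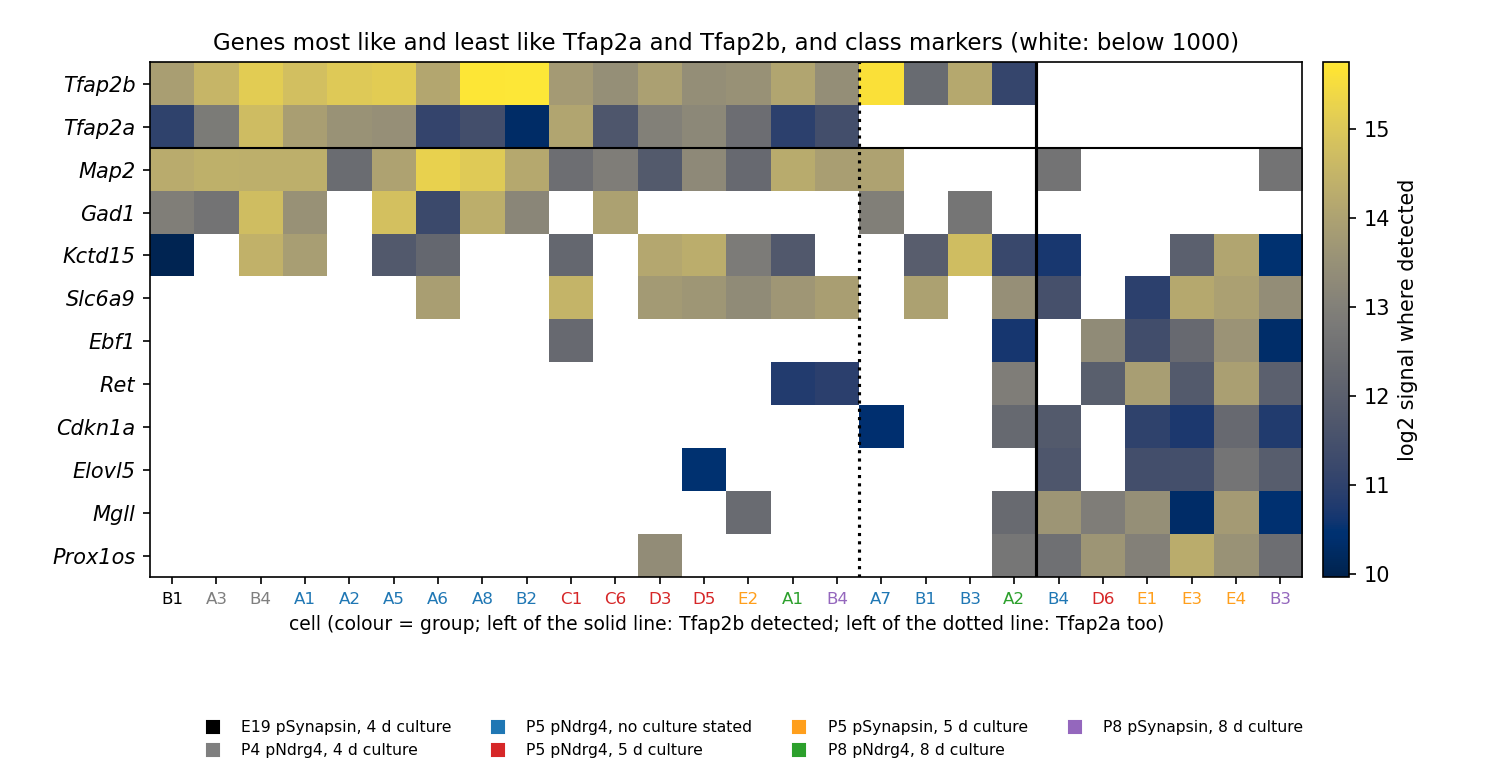
Log2 signal of the AP-2 pair and of selected genes (rows) in the 26 cells (columns), white where the signal was below 1000; cells left of the solid line have Tfap2b and those left of the dotted line Tfap2a too, and label colours give the group. Map2 and Gad1 lie mostly to the left, while Cdkn1a, Elovl5, Mgll, Prox1os and Ebf1 fill most of the 6 columns without Tfap2b and few others.

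Among the amacrine transcription factors, 28 were listed and 26 measured. Those detected only in cells with Tfap2b were Neurod2 (6 of 6 cells), Nfia (6 of 6), Nr4a2 (5 of 5), Pou3f3 (5 of 5), Lhx9 (3 of 3) and Isl1 (1 of 1), while Tfap2b was detected in 20 of 26 cells. Phi with Tfap2b was 0.30 for Neurod2 and Nfia and 0.27 for Nr4a2 and Pou3f3, near the 95th percentile of 0.27 over the 6267 genes. How many other genes detected as rarely lie within the Tfap2b cells was not counted. Barhl2, a homeobox gene of amacrine cells, was detected in 10 cells, 9 with Tfap2b, and Meis2 in 12, 10 with Tfap2b. Ebf1, a helix-loop-helix factor gene, was detected mainly in cells without Tfap2b. Of its 7 cells (P5 C1, D6, E1, E3, E4, P8 A2 and B3) 2 had Tfap2b and 1 had Tfap2a (phi -0.70 and -0.59). All 5 cells without an AP-2 gene had Ebf1, at 10402 in D6, 2672, 5061 and 12301 in E1, E3 and E4, and 1302 in P8 B3. The receptor tyrosine kinase gene Ret, on the horizontal cell list, was also detected in those 5 cells and in 3 others, all from P8. Nhlh2, Tcf4 and Ebf3 were detected in 13, 16 and 8 cells, of which 7, 10 and 4 had Tfap2b (phi -0.55, -0.43 and -0.43). The 5th percentile over the 6267 genes was -0.43. Nhlh2 and Tcf4 were each detected in all 6 cells without Tfap2b. Of 20 list genes among the 8570, 0 were higher by 2 or more in P5 pSynapsin than in P5 pNdrg4 cells and 2 lower (Ebf3 at -2.59 and Tshz1 at -3.21), where 6.02% and 4.25% of all genes were, with a list median of 0 and a median of 0 over all genes.

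Of the factors known upstream of the amacrine fate, Ptf1a, Foxn4 and Atoh7 were detected in 0 of 26 cells. The nuclear receptor gene Rorb was detected in 14 cells, 11 with Tfap2b, Neurod1 in 11, 9 with Tfap2b, and Neurod4 in 7, 5 with Tfap2b. Neurog2 was detected in 4 cells, all with Tfap2b and Tfap2a (phi 0.23 and 0.34).

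Genes of proteins that AP-2 factors act with were detected in cells with and without the AP-2 pair. Of 12 coactivators and partners, 11 were measured and 9 detected in at least 1 cell. Crebbp, the CBP acetyltransferase gene, was detected in 16 cells (11 with Tfap2b), the AP-2 cofactor gene Yeats4 in 14 (11), Cited2 in 13 (9), Dek, Parp1 and Rb1 in 9 each (7, 6 and 7), Sp1 in 8 (7) and Ep300 in 5 (3). Cited4 and Myc were detected in 0. Parp1, which encodes a poly(ADP-ribose) polymerase, ran against Tfap2a: 2 of its 9 cells had Tfap2a (phi -0.59). Its highest signal was 29181 in P5 A8, which had Tfap2a, and its second highest was 12158 in P4 A3, which had Tfap2a too. Among 8 list genes in the P5 reporter comparison, 2 were higher by 2 or more in pSynapsin cells (Parp1 at 2.26, Ep300 at 2.06), where 6.02% of all genes were, and 1 was lower (Yeats4 at -2.03). The list median was 1.12 against 0 over all genes.

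Of 8 inhibitors and modifiers 6 were measured. Kctd15, whose product inhibits AP-2 activity in the neural crest, was detected in 17 cells, 13 with and 4 without Tfap2b. Its highest signals were 27567 in P5 B3, 21848 in P4 B4, 20177 in P5 D5 and 18191 in P5 D3, all with Tfap2b, but P5 E4 with no AP-2 gene had 17316. Npm1 was detected in 24 cells, Apc in 22 and Chd3 in 17, while Kctd1, the close relative of Kctd15, was detected in 1 and Wwox in 0. In the P5 reporter and culture comparisons 0 of 4 list genes reached 2 in either direction, with medians of 0.15 and 0.55 against 0 and 0.31 over all genes. Of all genes, 6.02% were higher and 4.25% lower by 2 or more in the reporter comparison, and 7.36% and 1.48% in the culture comparison.

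Genes reported as AP-2 targets in other tissues were almost silent here. Of 13 listed, 12 were measured and 2 were detected in any cell, Kit in 1 and Cdkn1a in 7. Erbb2, Erbb3, Esr1, Mcam, Cdh1, Mmp2, Dbh, Krt5, Krt14 and Cga were detected in 0 of 26 cells. Cdkn1a, given above, was higher by 2.69 in P5 pSynapsin than in P5 pNdrg4 cells.

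Without the 5 cells rich in rod genes, 21 cells remained, of which 16 had Tfap2b and 13 Tfap2a, and all 13 had both.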

How the data were processed

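The members and the gene lists were chosen with earlier results of these data known. Single fluorescent cells were picked by hand after papain dissociation, and their cDNA was amplified by 35 cycles of PCR from an oligo dT primer, per the labels' protocols. The table holds signal intensity on a linear scale, for which the authors used MAS5 according to the submitters' processing notes (version not given in the sources used here). The values were used as deposited, because trimming 2% of values at each end leaves a mean of 500 on every array. Detection calls were not used here. So many PCR cycles can distort the amount of a transcript, and the number of arrays limits the precision.

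Probe sets were named through the platform annotation and RefSeq symbols. Of 45101 probe sets, 34945 had 1 current gene. Each gene took its brightest probe set by mean log2 value over cells after a floor of 200 (0.4 times the trimmed mean, 7.64 on the log2 scale), and detection meant a signal of 1000 or more. Differences are those of group means of floored log2 values and understate gaps to the floor. Wide means at least 2 on the log2 scale, among the 8570 genes detected in at least 2 cells. No 2 arrays were identical (0 pairs). The 5 highest and 3 lowest phi coefficients of detection were named for members detected in 4 to 22 cells (1 clone-type symbol left out on each low side), with list genes detected in at least 3 cells (AP-2 and amacrine transcription factor lists) or 6 cells (other lists). Promoter sequences are RefSeq's for GRCm38.p6, and Tfap2c had no entry. A check on shuffled values with planted shifts covered only the arithmetic of the differences and of phi. Computing used scipy 1.17.1, numpy 2.4.6 and pandas 2.3.3 in Python 3.11.15, and figures matplotlib 3.10.9. Alternatives were other probe set rules, normalizations, detection levels, floors, group medians and leaving out each cell. Leaving out the rod-rich cells and the second probe sets were chosen after seeing the data.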

Additional observations from a re-analysis of the deposited data

Results flagged for a closer look

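Groups of 4 to 10 cells were searched for a cell far from the others by Dixon's criterion. Of 10 combinations of a gene and a group that were examined, 6 had such a cell. Chance meets the criterion in about 1 of 20 groups of normally distributed values, which values raised to a floor are not. In 4 combinations all other cells tie at the floor (E2 in both genes, B4 in Tfap2c and A7 in Tfap2e). There the rate does not apply at all, because a single cell above the floor then always meets the criterion. In the P5 pSynapsin group the cell was E2, with a Tfap2a signal of 5528 and a Tfap2b signal of 11792 where the 3 others were at the floor. In the cultured P5 pNdrg4 group it was D6, with a Tfap2b signal of 413 where the 4 others had 11034 to 15758. In the P5 group with no culture stated, cell B4 had a Tfap2b signal of 14.8 and a Tfap2c signal of 18992.5, and cell A7 a Tfap2e signal of 4214.

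Of 14 rod genes, 9 were detected in E2, against 2 to 6 in the rest of its group, and 7 in B4, against 1 to 6.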

How the results depend on the processing

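Counts of detected cells and differences of group means were recomputed under each alternative. Of the 10 differences of Tfap2a and Tfap2b, the 5 for culture, for the P5 reporters and for Tfap2a with age in pNdrg4 cells kept their sign under all alternatives run. The other 5 took the opposite sign under 11 alternatives in all, nearly always on leaving out 1 cell. With the median over the probe sets of a gene, Tfap2a was detected in 8 cells, all 8 with Tfap2b. Tfap2d was detected in 3 cells after quantile normalization and in 0 at 4 times the trimmed mean. The P8 reporter difference of Tfap2b turned to 0.82 without P8 B3, which leaves 1 pSynapsin cell, and was above -2 after quantile normalization (-1.91), scaling to the 75th percentile (-1.77) and with a floor of 500 (-1.41). With the second probe set, an alternative chosen after seeing the data, Tfap2a was detected in 8 cells and Tfap2b in 11, and the cells with both were 8 and 10. Tfap2a was detected without Tfap2b in 0 cells under the other settings, but in 6 with that Tfap2b probe set. It also moved the culture difference of Tfap2b to -0.18.

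Leaving out 1 cell at a time, the P5 reporter difference ran from -4.29 to -2.56 for Tfap2a and from -5.02 to -3.06 for Tfap2b. With group medians it was -5.37 and -5.81, and with a floor of 500 it was -2.37 and -2.61. The culture difference ran from 0.55 to 2.16 for Tfap2a and from -2.08 to -0.38 for Tfap2b. At P8 the reporter difference ran from -1.67 to 2.12 for Tfap2a and from -4.96 to 0.82 for Tfap2b. The age difference in pNdrg4 cells ran from -4.29 to -0.96 for Tfap2a and from -1.54 to 1.43 for Tfap2b, and in pSynapsin cells from -1.20 to 2.59 and from -1.47 to 4.31. The cause of these shifts was not tested. No paired analysis was possible because the labels give cell names and no replicate numbers shared between groups, and no result comes from a test. Signals below 1000 were not called, so a gene that was not detected may still have been transcribed.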
